A study of Mus musculus with 9 samples.

Results

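The BCL2 family apoptosis regulators are genes whose proteins set the integrity of the outer mitochondrial membrane. The 10 genes described were chosen by name from the 55401 genes counted, with earlier results of these data known: the anti-apoptotic Bcl2, Bcl2l1 and Mcl1, the pore-forming Bax and Bak1, and the BH3-only Bbc3, Pmaip1, Bcl2l11, Bid and Bad. Poly(A) RNA was sequenced from primary neonatal mouse ventricular myocytes (NMVMs), isolated from wild-type C57BL/6J pups aged 1 day and cultured in DMEM with 10% FBS, in 9 libraries. The 3 control cultures stayed in complete medium at normal oxygen. The 3 hypoxia cultures were kept for 6 h in a sealed oxygen-absorbing chamber in DMEM free of glucose and serum, and the 3 hypoxia + rSRGN cultures had recombinant SRGN, the proteoglycan core protein serglycin, added during those 6 h, at a dose that the labels do not give. Low oxygen and the loss of glucose and serum were applied together and cannot be told apart in any comparison with control. No label tells whether the 3 cultures of a group came from separate isolations, so p-values measure only the spread between these samples, which may be technical.

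In this family, the anti-apoptotic proteins bind and hold in check the pore formers BAX and BAK, and the BH3-only proteins either occupy that binding groove or engage the pore formers directly. Once BAX or BAK form pores, cytochrome c leaves the mitochondria and starts the caspase cascade. Mcl1 and Bcl2l1 are known as survival genes of heart muscle, and BH3-only genes are known as the stress-responsive arm of the family. Much of the control acts on protein stability, phosphorylation and location, which RNA counts do not measure.

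The members are related through the BH3 motif, the short helix by which they bind each other. The 30 bases that code for it are shown for the 9 members whose stretch was read. Anti-apoptotic, pore-forming and BH3-only members all appear among these 9. The stretches were read from GENCODE transcripts on GRCm38, and capitals mark the codon of the leucine and the codon of the aspartate that define the motif.
Bcl2 (chr1:106712578-106712607, minus strand): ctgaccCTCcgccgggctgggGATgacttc
Bcl2l1 (chr2:152829700-152829729, minus strand): caagcgCTGagagaggcaggcGATgagttt
Mcl1 (chr3:95659430-95659459, plus strand): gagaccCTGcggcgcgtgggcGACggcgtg
Bax (chr7:45466000-45466029, minus strand): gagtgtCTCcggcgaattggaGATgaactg
Bak1 (chr17:27022534-27022563, minus strand): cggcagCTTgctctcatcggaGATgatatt
Bbc3 (chr7:16313767-16313796, plus strand): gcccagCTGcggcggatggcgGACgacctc
Bcl2l11 (chr2:128147144-128147173, plus strand): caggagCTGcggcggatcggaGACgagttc
Bid (chr6:120897292-120897321, minus strand): agacatCTCgcccaaataggcGATgagatg
Bad (chr19:6950786-6950815, plus strand): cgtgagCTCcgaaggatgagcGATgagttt
Each stretch shown lies within a single coding exon. The transcripts of Bcl2l1 held 2 distinct stretches, and the stretch shown was in 6 of these transcripts. The most alike pair was Bbc3 and Bcl2l11, identical at 21 of 30 bases, and Bad and Bcl2l11 were identical at 20 of 30. Counts were made per gene and not per isoform, so long and short products of Bcl2l1, Mcl1 or Bcl2l11 were not separated.

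Library totals ran from 21669017 to 22781557 counts in control, from 16583985 to 18148474 in hypoxia and from 16640239 to 20826701 in hypoxia + rSRGN. All 10 members passed the filter on low counts, as did 16762 genes in all. Levels are CPM, counts scaled to the TMM-adjusted library total, and a gene was called when edgeR's quasi-likelihood test gave a Benjamini-Hochberg adjusted p below 0.05 over all 16762 genes and the fold change was at least 1.5. The cultures also differed in cell-type markers. The 15 cardiomyocyte markers summed to between 51993.9 and 63246.7 CPM in control, between 4628.8 and 7235.9 in hypoxia and between 9337 and 9966 in hypoxia + rSRGN. The 11 fibroblast markers summed to between 11783.6 and 13575.9 CPM in control, between 26389.9 and 29187.0 in hypoxia and between 28168.1 and 29087.6 in hypoxia + rSRGN. The 10 macrophage markers lay between 233.9 and 251.0 CPM in control and between 25.3 and 35.2 in the other groups, the 8 endothelial markers between 74.0 and 103.2 in control and between 50 and 66.5 in the others, and the 6 smooth muscle markers between 1461.8 and 1735.7 in control and between 1952.4 and 2477.5 in the others. Of the 7 neutrophil markers none was tested, their sum reached at most 1.35 CPM, and Ly6g and Mpo were at 0 counts. In hypoxia against control, 15 of 15 cardiomyocyte, 10 of 10 macrophage and 6 of 8 endothelial markers were called lower and 9 of 11 fibroblast markers higher, and of the smooth muscle markers 2 were called higher and 1 lower. In hypoxia + rSRGN against hypoxia, 12 of 15 cardiomyocyte, 1 of 8 endothelial and 1 of 6 smooth muscle markers were called higher, 1 of 11 fibroblast markers was called lower and 0 of 10 macrophage markers were called. In such bulk libraries fewer cells of a type and less RNA per cell cannot be told apart, and the part of these shifts in the changes of the members was not tested.

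Under hypoxia without glucose and serum, the pore former Bax and the BH3-only genes Pmaip1, Bbc3 and Bid rose, as did the anti-apoptotic Bcl2l1, while the BH3-only gene Bcl2l11 fell. The BH3-only arm therefore moved in both directions. Of the 10 members, 5 were called higher (26.4% of all genes tested were), 1 was called lower (25.1% of all genes) and 4 were not called. Taken in either direction, 6 of 10 members were called beside 51.6% of all genes, a share near that background. The median log2 fold change was 0.57 over the members and 0.0537 over all genes tested. With no fold limit all 10 members had an adjusted p below 0.05, as did 70.9% of all genes tested. Over the 16 alternative fits this number of members was between 8 and 10, since the adjusted p of Bak1 was above 0.05 in 7 (up to 0.225, without hypoxia 2) and that of Bcl2 in 2 (0.0706 with library totals alone and 0.129 without hypoxia 3). Groups did not overlap for 9 of 10 members, Bak1 being the exception, and for 73.0% of all genes.

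**Figure D1:**
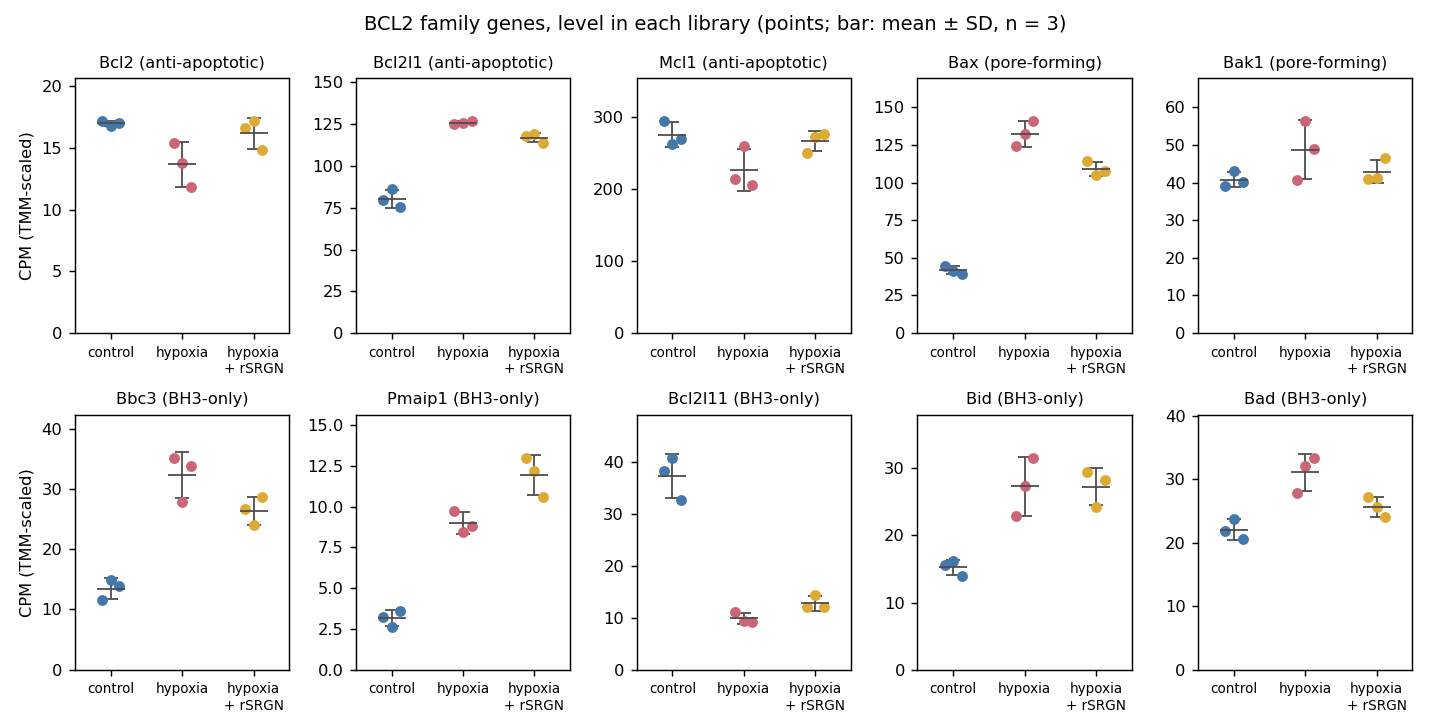
Level of each of the 10 genes in each library in CPM (linear axes from 0, a scale per gene), with points for libraries, a bar for the mean and whiskers for the SD of 3. Bax, Bbc3, Pmaip1, Bid and Bcl2l1 sit higher in every hypoxia library than in every control library, and Bcl2l11 sits lower.

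Bax codes for the pore former that moves from the cytosol to mitochondria. It was at 44.5, 41.5 and 39.5 CPM in control, 124, 132 and 141 in hypoxia and 114, 105 and 108 in hypoxia + rSRGN. Every hypoxia library lay above every other library, and every control library lay below all of them. The rise from control to hypoxia was 3.16-fold (log2 1.66, SE 0.0777, n = 3 per group, edgeR adjusted p = 1.94e-14). Of the 16762 genes tested, 1339 had a larger positive log2 fold change. Bak1, the pore former that resides in the mitochondrial membrane, had 39.2, 43 and 40.1 CPM in control and 40.7, 56.4 and 49 in hypoxia. The groups overlapped, and its log2 fold change of 0.254 (95% interval 0.0413 to 0.466, edgeR adjusted p = 0.0316) was under the fold limit.

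Among the BH3-only genes, Bbc3 codes for PUMA, a p53 target that binds all anti-apoptotic members. Its levels were 11.5, 14.9 and 13.9 CPM in control and 35.2, 27.9 and 33.8 in hypoxia, with no overlap. The rise was 2.41-fold (log2 1.27, SE 0.119, edgeR adjusted p = 2.91e-09). Pmaip1 codes for NOXA, which binds MCL1 with preference, and was the least abundant member in control at 3.24, 2.62 and 3.58 CPM. It stood at 9.72, 8.44 and 8.8 CPM in hypoxia, a rise of 2.86-fold (log2 1.52, SE 0.166, edgeR adjusted p = 3.52e-08). The control and hypoxia libraries of Pmaip1 did not overlap. Bid, whose protein is cut by caspase-8 and links death receptors to mitochondria, had 15.6, 16.2 and 14 CPM in control and 22.9, 27.4 and 31.6 in hypoxia. It rose 1.79-fold (log2 0.837, SE 0.119, edgeR adjusted p = 1.86e-06), and its hypoxia libraries were spread more widely than its control libraries. Bad, whose protein is held inactive by growth factor signalling through phosphorylation, had 21.8, 23.8 and 20.6 CPM in control and 27.8, 32 and 33.4 in hypoxia. The groups of Bad did not overlap, and its 1.41-fold difference (log2 0.493, 95% interval 0.282 to 0.704, edgeR adjusted p = 0.000182) was not called.

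Bcl2l11, which codes for BIM and is known as a FOXO target induced by loss of growth factors, went the other way. It was at 38.4, 40.9 and 32.7 CPM in control, 11.1, 9.42 and 9.21 in hypoxia and 12, 14.5 and 12 in hypoxia + rSRGN. All 3 control libraries lay above all 6 others. The fall in hypoxia was 3.77-fold (log2 fold change -1.91, SE 0.121, edgeR adjusted p = 3.41e-12), and 1324 of the 16762 genes had a more negative value.

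The anti-apoptotic genes did not move as a group. Bcl2l1, which codes for BCL-XL, had 79.5, 86.2 and 75.3 CPM in control and 125, 126 and 127 in hypoxia. The 3 hypoxia libraries were almost equal and above all controls, and the rise was 1.57-fold (log2 0.648, SE 0.071, edgeR adjusted p = 3.69e-08), just past the fold limit. Mcl1, a short-lived protein on which heart muscle is known to depend, had 294, 262 and 269 CPM in control and 213, 259 and 205 in hypoxia. The second hypoxia library came close to the lowest control, and the log2 fold change of -0.286 (95% interval -0.46 to -0.113, edgeR adjusted p = 0.00431) was not called. Bcl2, the founding member, had 17.2, 16.8 and 17 CPM in control and 15.4, 13.8 and 11.8 in hypoxia. Its log2 fold change of -0.308 (95% interval -0.549 to -0.0674, edgeR adjusted p = 0.022) was not called either, although the groups did not overlap.

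**Figure D2:**
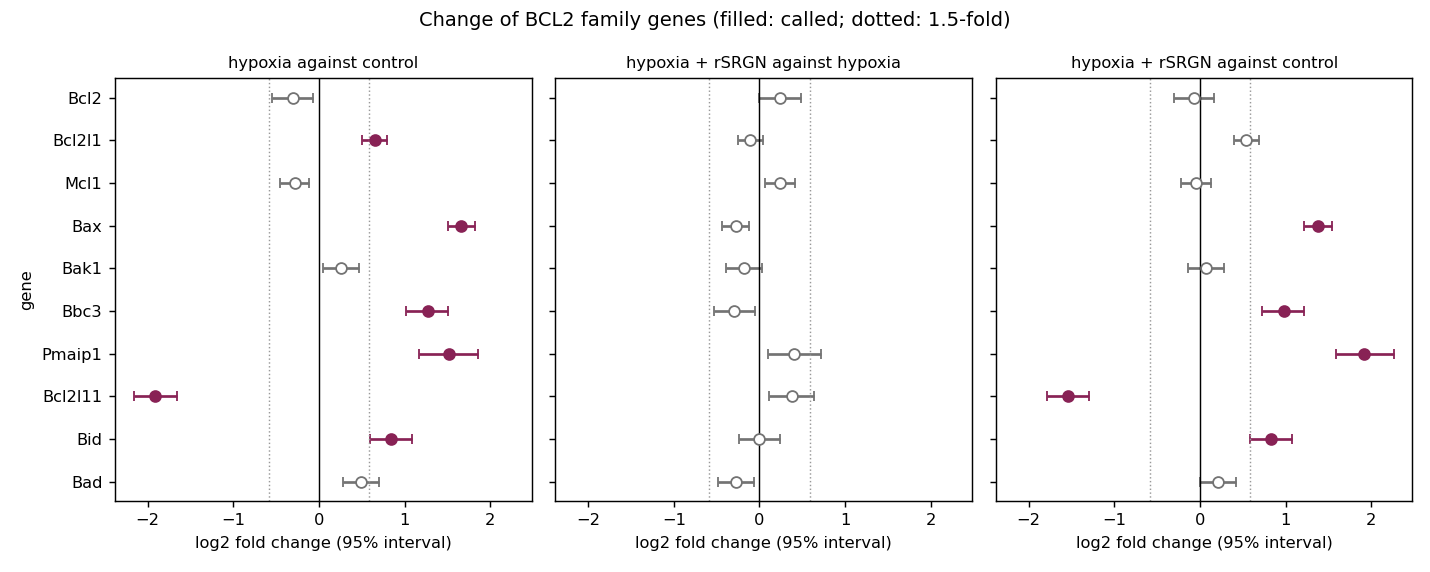
Log2 fold change of each gene (horizontal axis) in the 3 comparisons, with 95% intervals from the edgeR fit. Filled points were called and dotted lines mark 1.5-fold. In hypoxia against control 6 genes are filled, with Bcl2l11 at -1.91 and Bax at 1.66 at the ends, and in hypoxia + rSRGN against hypoxia none is.

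Division by exon length allows an approximate comparison of levels between genes. The length used is that of all annotated exons, from 1576 bases for Bax to 9157 for Bcl2, whichever transcripts are expressed. The order of genes depends on this step. In CPM, Mcl1 (213, 259 and 205) lay above Bax (124, 132 and 141) in every hypoxia library. In control, Mcl1 led with 80.5 ± 4.91 CPM per kilobase (SD, n = 3), followed by Bax at 26.5 ± 1.62, and Bcl2l1 at 17.5 ± 1.2 and Bak1 at 17 ± 0.825, whose ranges overlapped. Bad (8.62), Bbc3 (6.32), then Bcl2l11 (4.65) and Bid (4.3), whose ranges overlapped, Bcl2 (1.85) and Pmaip1, the lowest, followed as mean CPM per kilobase. In hypoxia Bax took the first place at 83.9 ± 5.49 CPM per kilobase, above Mcl1 at 66.0 ± 8.5, and these ranges did not overlap. Bcl2l1 (27.4), Bak1 (20.2), Bbc3 (15.2), Bad (12.1), Bid (7.69) and Pmaip1 (3.29) followed as mean CPM per kilobase, with no overlap between neighbours. Bcl2l11, at 1.23, had moved to the last place beside Bcl2 at 1.49, and the ranges of this pair overlapped. In hypoxia + rSRGN, Mcl1 (77.7 ± 4.06) stood above Bax (69.2 ± 2.89) in CPM per kilobase, without overlap, and the order of the other genes was that of hypoxia.

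The summed level of the 10 members was 168.4 ± 5.69 CPM per kilobase in control, 238.6 ± 12 in hypoxia and 228.2 ± 3.2 in hypoxia + rSRGN (SD, n = 3). Of this sum, the anti-apoptotic genes made up 59.3% ± 1.37 in control, 39.8% ± 2.61 in hypoxia and 46.0% ± 1.68 in hypoxia + rSRGN. The pore formers made up 25.8% ± 0.36, 43.6% ± 1.74 and 38.2% ± 1.02 in the same order. The BH3-only genes kept a narrower range of shares, at 14.9% ± 1.03, 16.6% ± 1.31 and 15.8% ± 0.655. These shares are descriptions of transcript make-up, are dominated by Mcl1 and Bax, and were not tested.

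**Figure D3:**
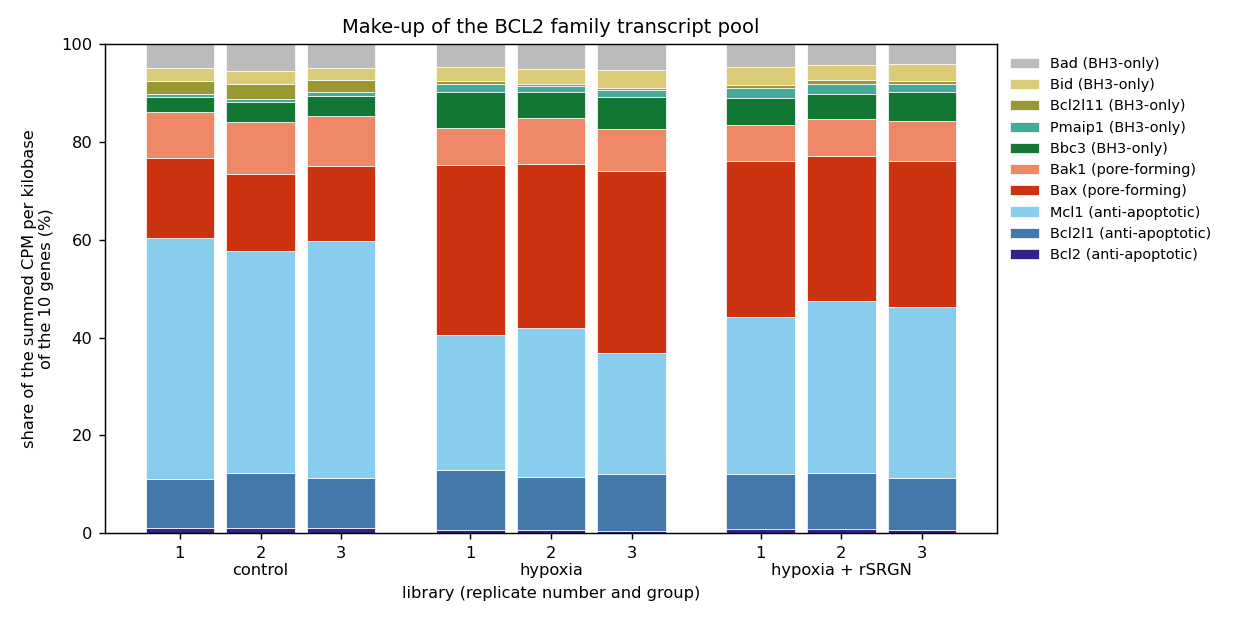
Share of each gene in the summed CPM per kilobase of the 10 genes (vertical axis, %), with a stacked bar for each of the 9 libraries. Anti-apoptotic genes (blue) take 59.3% on average in control and 39.8% in hypoxia, where Bax (dark red) reaches 35.2%.

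Ratios formed within a library are independent of its depth and scaling. The ratio of Bax to Bcl2, in CPM per kilobase, was 15.1, 14.4 and 13.5 in control, 46.7, 55.4 and 69.4 in hypoxia and 40, 35.6 and 42.5 in hypoxia + rSRGN. The ratio of Bax to Mcl1 was 0.329, 0.343 and 0.318 in control and 1.26, 1.1 and 1.49 in hypoxia. It was 0.989, 0.841 and 0.85 in hypoxia + rSRGN. Per kilobase, Bax thus exceeded Mcl1 in each hypoxia library and in no other. The 3 groups did not overlap in either ratio. The ratio of Bax to Bcl2l1 changed less, from a mean of 1.52 ± 0.115 in control to 3.06 ± 0.177 in hypoxia and 2.72 ± 0.127 in hypoxia + rSRGN, since both genes rose in hypoxia. Within the BH3-only genes, the ratio of Bbc3 to Bcl2l11 was 1.37 ± 0.242 in control, 12.4 ± 1.38 in hypoxia and 7.89 ± 1.44 in hypoxia + rSRGN. The ratio of Bcl2l11 to Pmaip1 was 4.15 ± 1.11 in control, 0.374 ± 0.0164 in hypoxia and 0.368 ± 0.0475 in hypoxia + rSRGN. These ratios (SD, n = 3) are descriptions, with no test.

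**Figure D4:**
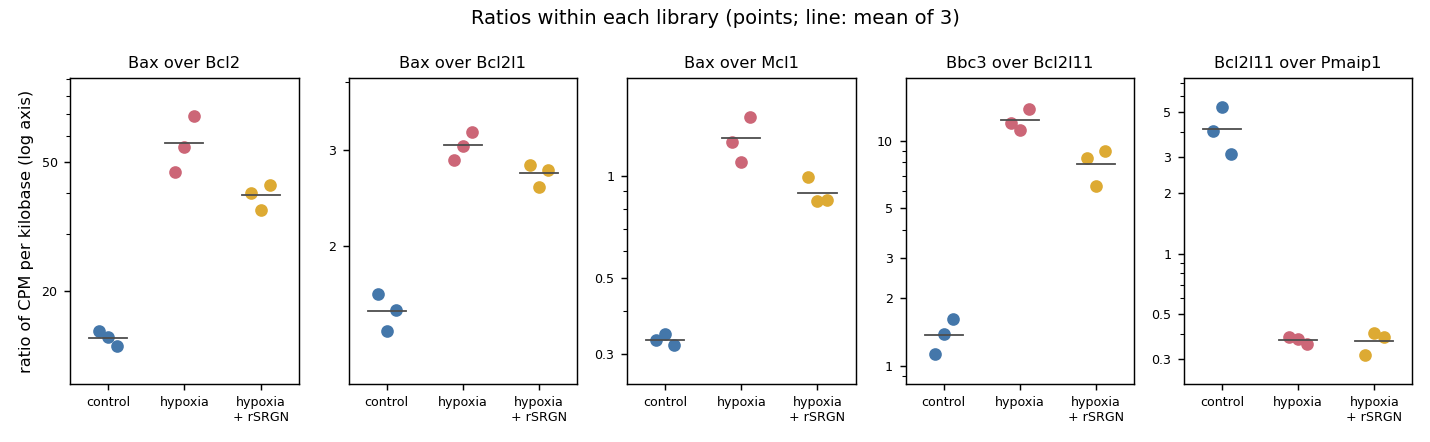
Ratios of CPM per kilobase within each library (log axes, a scale per ratio), with points for libraries and a line for the mean of 3. Bax over Mcl1 lies above 1 in the hypoxia libraries alone, and Bcl2l11 over Pmaip1 lies above 1 in the control libraries alone.

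Adding rSRGN under hypoxia moved no member past the threshold. Of the 10 members, 0 were called in either direction, beside 3.13% of all genes tested (2.27% higher and 0.859% lower). DESeq2 also called 0 of them, and 6 members had an unadjusted p below 0.05 in edgeR at any fold, beside 29.4% of all genes. Groups did not overlap for 5 of 10 members and for 32.0% of all genes, and the median log2 fold change was -0.055, against -0.0289 over all genes. The 95% intervals of Pmaip1 and Bcl2l11 reached past 1.5-fold, and those of the other 8 members lay within it.

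Bax and Bcl2l11, 2 of 10 members, had an adjusted p below 0.05 with a change under the fold limit, a share near the 16.6% of all genes with such a p at any fold. Over the 16 alternative fits the number was between 0 and 4: it was 4 with RLE and with DESeq2, where Mcl1 and Pmaip1 joined, 4 without hypoxia 1, where Bak1 and Bad joined, 1 in the 6 libraries compared alone and without hypoxia + rSRGN 1 or hypoxia + rSRGN 3, and 0 without hypoxia 3 or hypoxia + rSRGN 2. Bax was at 124, 132 and 141 CPM in hypoxia and at 114, 105 and 108 with rSRGN, with no overlap (log2 fold change -0.278, SE 0.0745, 95% interval -0.432 to -0.123, edgeR adjusted p = 0.0136). Bcl2l11 was at 11.1, 9.42 and 9.21 CPM in hypoxia and at 12, 14.5 and 12 with rSRGN, also with no overlap (log2 fold change 0.375, SE 0.128, 95% interval 0.11 to 0.64, edgeR adjusted p = 0.0476). Over the 16 alternative fits, the adjusted p of Bax ran from 0.00936 to 0.0892 and was below 0.05 in 13, the others being those without hypoxia 3 (0.0786), hypoxia + rSRGN 2 (0.0892) or hypoxia + rSRGN 3 (0.056). That of Bcl2l11 ran from 0.0264 to 0.246 and was below 0.05 in 9, the highest being 0.156 without hypoxia 3 and 0.246 without hypoxia + rSRGN 2.

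Pmaip1 was the member with the largest estimate, at 9.72, 8.44 and 8.8 CPM in hypoxia and 13, 12.2 and 10.6 with rSRGN. All 3 rSRGN libraries lay above all 3 hypoxia libraries, which in turn lay above control, and the log2 fold change of 0.406 (SE 0.148, 95% interval 0.0983 to 0.714, edgeR adjusted p = 0.0652) missed the threshold. Bad was at 27.8, 32 and 33.4 CPM in hypoxia and 27.2, 25.6 and 24 with rSRGN, without overlap (log2 fold change -0.278, edgeR adjusted p = 0.0647). Mcl1 was at 213, 259 and 205 CPM in hypoxia and 250, 271 and 276 with rSRGN, with overlap (log2 fold change 0.237, edgeR adjusted p = 0.0566). Over the 16 alternatives the adjusted p of Mcl1 ran from 0.000974, without hypoxia 2, to 0.229 and was below 0.05 in 6, among them DESeq2 (0.0161) and RLE (0.0305). Bbc3 was at 35.2, 27.9 and 33.8 CPM in hypoxia and 26.6, 24 and 28.6 with rSRGN, again with overlap (log2 fold change -0.292, edgeR adjusted p = 0.0863). The remaining members had adjusted p values of 0.178 (Bcl2), 0.253 (Bak1), 0.333 (Bcl2l1) and 0.991 (Bid), and the interval of Bid was -0.244 to 0.238 in log2.

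The comparison of hypoxia + rSRGN with control shares its libraries with the comparisons above, and its values are given beside them without a test of the difference. Of the 10 members, 4 were called higher (24.1% of all genes tested) and 1 lower (24.7%), which makes 5 of 10 called beside 48.8% of all genes. Bax (log2 fold change 1.38), Pmaip1 (1.92), Bbc3 (0.976) and Bid (0.834) rose, and Bcl2l11 fell (-1.54, SE 0.117, edgeR adjusted p = 9.59e-11). Pmaip1 thus had a log2 fold change of 1.92 (SE 0.162, edgeR adjusted p = 5.89e-10) against control with rSRGN and 1.52 without. Bcl2l1 was not called, with 1.45-fold (log2 0.541, edgeR adjusted p = 6.22e-07), and was called with library totals in place of TMM (log2 0.587). The log2 fold changes of Mcl1 (-0.0494), Bcl2 (-0.0685) and Bak1 (0.073) had intervals that include 0. Bad was not called, at 0.214 (95% interval 0.00214 to 0.426, edgeR adjusted p = 0.0678), and its groups did not overlap.

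The counts in the lists of other genes of the pathway are to be read beside the 26.4% of all genes called higher and the 25.1% called lower in hypoxia against control. Of the 15 other BCL2 family genes, 8 were tested, and 1 was called higher and 4 lower in hypoxia (median log2 fold change -0.777). Bok, a BAX-like pore former, rose by 1.11 in log2, from 34.6 ± 1.72 to 74.7 ± 5.5 CPM (SD, n = 3, edgeR adjusted p = 8.98e-11). Bik, a BH3-only gene, fell from 8.8 ± 1.45 to 0.378 ± 0.18 CPM (log2 fold change -4.52, edgeR adjusted p = 1.69e-11), and Bnip3, a mitophagy receptor and known HIF target, from 52.3 ± 23.8 to 11.9 ± 1.29 CPM (-2.14, edgeR adjusted p = 3.3e-08). Bmf, a BH3-only gene, also fell (-1.16, edgeR adjusted p = 8.84e-06; named after its value was seen). Hrk, Bcl2l10, Bcl2l14, Bcl2l15 and the near-identical Bcl2a1a, Bcl2a1b and Bcl2a1d were too low to test, with between 8 and 61 counts in the 9 libraries together.

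Downstream of the pore, of the 13 genes for cytochrome c, the apoptosome and caspases 0 were called higher and 7 lower in hypoxia (median log2 fold change -0.623). Endog, a mitochondrial nuclease (log2 fold change -1.66), and Dffa, the inhibitor of the caspase-activated nuclease (-1.46), fell most. Of the 6 inhibitor of apoptosis genes tested out of 8, Birc5, which codes for survivin and is also a cell division gene, rose (1.06), and Xiap (-1.26), the direct caspase inhibitor, and Birc6 (-0.633) fell. Of the 11 death receptor genes, 8 were called higher and 1 lower (median 0.894). Mlkl, from 9.99 ± 1.93 to 22.2 ± 1.9 CPM, and Ripk3, from 39.4 ± 2.98 to 79.6 ± 13.1 CPM (SD, n = 3), both of which act in necroptosis, rose most. Fadd, the adaptor of caspase-8, fell (log2 fold change -1.16).

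Upstream, 4 of 19 tested p53 genes were called higher and 4 lower in hypoxia (median 0.222). The growth factor Gdf15 (log2 fold change 2.35) and the cell cycle inhibitor Cdkn1a (0.982) rose, while Perp (-3.65), a membrane protein, and Sesn1 (-1.78), a stress-induced regulator of growth signalling, fell. Bax, Bbc3 and Pmaip1 are themselves known p53 targets. Of the 12 FOXO and stress factors, 8 were called higher and 3 lower (median 1.29). The stress factors Atf3 (5.21) and Jun (2.18) rose most, and Hif1a (-1.53) and Foxo3 (-0.903) fell. Of the 17 genes of MCL1 turnover and BCL2-binding partners, 2 were called higher and 5 lower (median -0.19). The co-chaperone Bag3 (1.69) and the calcium channel Itpr3 (0.814) rose, and Usp9x (-1.3), a deubiquitinase, and Fbxw7 (-1.18), a ubiquitin ligase subunit, both known to act on MCL1, fell. Of the 16 hypoxia response genes, 5 were called higher and 8 lower (median -0.555). Ndrg1 (1.48) and Adm (1.39) rose, and Pdk1 (-3.06), a kinase that restrains mitochondrial oxidation, and Ankrd37 (-2.96) fell.

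With rSRGN, Perp was the 1 gene called across these 8 lists in the fit of all libraries. Of all genes tested, 3.13% were called in this comparison. Perp rose from 23 ± 5.85 to 42.3 ± 0.781 CPM (SD, n = 3, log2 fold change 0.876, SE 0.116, edgeR adjusted p = 6.01e-05). Control stood at 288.3 ± 6.0 CPM for this gene. The count of called genes in these lists was 5 without hypoxia 2 and 3 without hypoxia + rSRGN 1 or hypoxia + rSRGN 3.

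**Figure D5:**
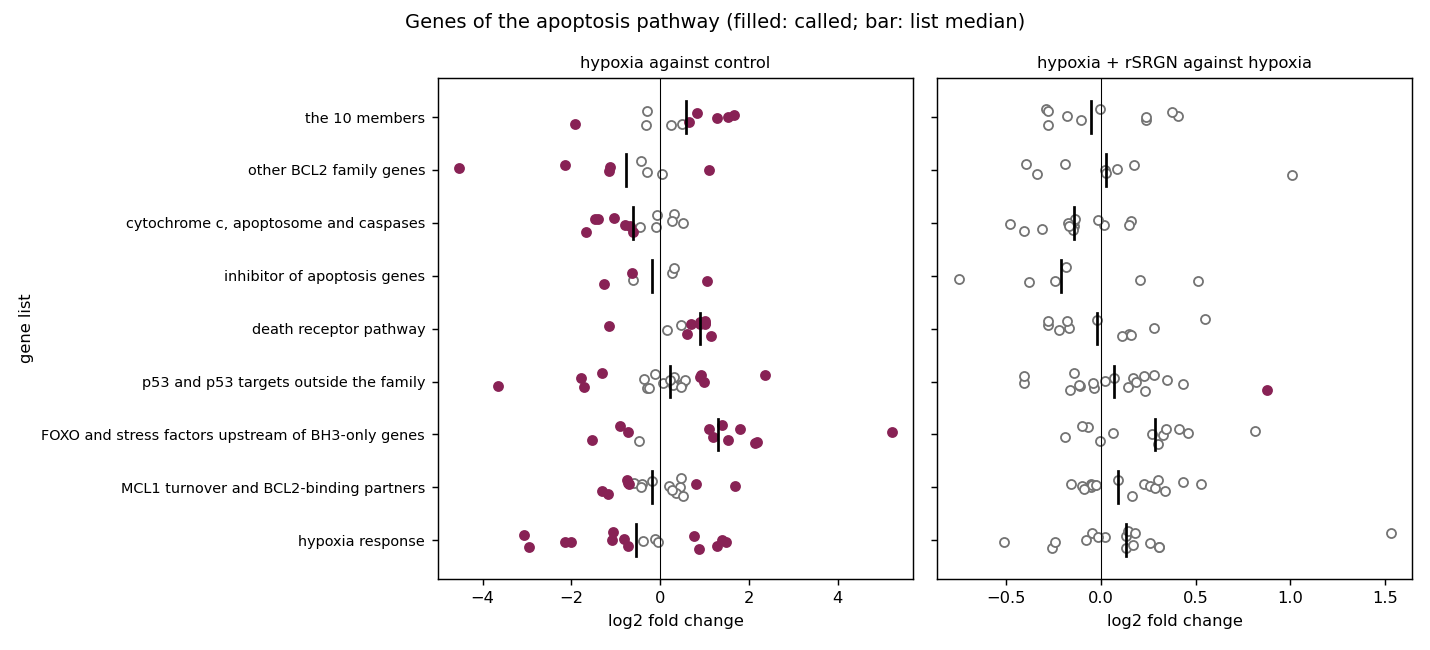
Log2 fold change (horizontal axis, with different scales in the panels) of each tested gene of the members and the 8 pathway lists (rows). Filled points were called and bars are list medians. In hypoxia against control the stress factors have the highest list median at 1.29 and the other BCL2 family genes the lowest at -0.777, and in hypoxia + rSRGN against hypoxia Perp is the filled point.

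Genes with the most similar pattern were sought for 5 members as the smallest root mean square difference in centred log2 CPM over the 9 libraries, among 14256 genes. The closest to Bax were Nnmt (0.057) and Ppic (0.0594), to Pmaip1 Ccl2 (0.121) and Lonrf3 (0.139), and to Bcl2l11 Lgr4 (0.0961) and Dip2b (0.111). The closest to Mcl1 were Rasa1 (0.052) and Rab10 (0.056), and to Bcl2 Ino80d (0.0605) and Kat6a (0.0652). Among the members, the difference of Bcl2 and Mcl1 was 0.136 and that of Bax and Bbc3 0.254, while the nearest member to Bcl2l11, Bcl2, was at 0.729.

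Promoter windows of 250 bases before to 50 after the annotated start (RefSeq, GRCm38.p6) were matched for 9 members, as 15 windows. They were searched on both strands for ACGTG, the core of a HIF site, TGACGTCA, TGATGNAA, GTAAACA, a FOXO site, and CACGTG, an E-box. A 10-base p53 half-site, which is only part of a full p53 site, was also searched. The windows of Bax, which rose, and of Bcl2l11, which fell, are shown because these genes had the largest log2 fold changes in each direction in hypoxia against control, with matches in capitals.
Bax (chr7:45466849-45467148, minus strand): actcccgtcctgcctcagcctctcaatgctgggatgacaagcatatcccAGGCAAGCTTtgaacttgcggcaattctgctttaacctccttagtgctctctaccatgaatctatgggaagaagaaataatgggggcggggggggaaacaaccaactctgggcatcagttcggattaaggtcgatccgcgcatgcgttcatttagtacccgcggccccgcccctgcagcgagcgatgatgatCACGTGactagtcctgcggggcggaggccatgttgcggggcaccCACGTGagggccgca
Bcl2l11 (chr2:128125788-128126087, plus strand): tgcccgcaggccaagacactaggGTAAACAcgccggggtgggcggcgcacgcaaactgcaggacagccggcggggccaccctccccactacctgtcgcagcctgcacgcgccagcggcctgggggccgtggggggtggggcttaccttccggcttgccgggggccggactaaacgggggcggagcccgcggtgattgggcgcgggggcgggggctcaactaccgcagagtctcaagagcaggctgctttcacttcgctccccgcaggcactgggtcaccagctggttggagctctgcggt
The capitals of Bax are 1 p53 half-site and 2 E-boxes, and all 4 ACGTG matches of that window lie within the E-boxes. The capitals of Bcl2l11 are 1 FOXO site, and its other window held none of the motifs. Bbc3 held an E-box in 1 window and a FOXO site in another, and no other member with a window had a match. Pmaip1 had no window and was not searched. Of 32851 promoter windows of all genes, 19.6% held ACGTG, 7.15% the E-box, 8.36% the p53 half-site and 3.65% the FOXO site. TGATGNAA was held by 3.97% of these windows and TGACGTCA by 1.79%. A match is a description of these letters and not a measured site.

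Counting did not use strand, and exons of some members overlap other genes. Bad shared 524 exon bases (20.48%) with Gpr137 and Bid shared 628 (17.69%) with Bcl2l13, both on the opposite strand, and Bak1 shared 437 (18.16%) with Ggnbp1. Bax shared 192 bases (12.18%) with Gm45808, and Bcl2 shared 558 (6.09%) with the antisense gene D630008O14Rik, both of which had 0 counts. Fragments in such stretches could have been left out or assigned to either gene, so the levels of Bad, Bid, Bak1, Bax and Bcl2, per length in particular, carry this uncertainty.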

How the data were processed

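RNA-seq counts of 9 libraries were analysed, 3 per group as assigned by the sample labels. The authors deposited raw counts per gene, whole numbers without normalization, made per the file headers with featureCounts 2.0.1 on paired fragments over exons of GENCODE release 25 (GRCm38), without a strand option. HISAT2 is named in the submitters' processing notes. All 9 count columns were used. The article given with the data describes hearts, and its methods were not taken over.

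With edgeR 4.0.16 in R 4.3.3, low genes were dropped by filterByExpr, TMM factors were computed, and a single quasi-likelihood fit with group means covered the 9 libraries, with Benjamini-Hochberg adjustment. The fold limit of 1.5 was set here. Standard errors were the log2 fold change divided by the square root of F, and 95% intervals used 21.5 degrees of freedom. The step was tested on simulated data. Alternatives were DESeq2 1.42.0, RLE or library totals, other filters and limits, the 6 libraries compared, a replicate block and each library left out.

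The genes named were the 10 members, up to 2 called genes with the largest rise and 2 with the largest fall per list, and the 2 nearest in pattern for 5 members with a mean of at least 1 CPM. Members and lists were chosen with earlier results of these data known. Ddit3 has 2 entries in the table, and the one used holds all their counts. Libraries with the same replicate number did not deviate together (correlations from -0.0374 to 0.0215 over 9 pairs). No pair of libraries within a group agreed within sampling noise.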

Additional observations from a re-analysis of the deposited data

How the results depend on the processing

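Of 480 recomputed log2 fold changes of members, 469 kept their direction and their side of the threshold. Bcl2l1 in hypoxia + rSRGN against control was called with library totals alone (0.587). Bid in hypoxia + rSRGN against hypoxia, at -0.00301, changed sign in 10 settings: 0.0257 with RLE, 0.0259 with DESeq2, 0.00809 with no filter beyond 1 count, 0.0105 with at least 10 counts in every library, 0.0131 in the 6 libraries alone, and 0.00843, 0.00805, 0.0025, 0.115 and 0.0785 without control 1, control 2, hypoxia 2, hypoxia 3 and hypoxia + rSRGN 2. Its values without a library ran from -0.115 to 0.115.

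With no fold limit the members called went from 6 to 10 in hypoxia against control, while all genes called went from 8644 to 11876, and from 0 to 2 in hypoxia + rSRGN against hypoxia. In the latter, all genes called went from 525 to 899 at the unadjusted p and 2790 with no fold limit, and ranged from 321 (without hypoxia 3) to 699 with a library left out. Pathway genes called there went from 1 to 2 with no filter, 4 at the unadjusted p and 26 with no fold limit, and ranged from 1 to 5 with a library left out (5 without hypoxia 2, 3 without hypoxia + rSRGN 1 or 3). The cause of these shifts was not tested beyond the looser limits themselves. Members called ranged from 6 to 6, 0 to 0 and 5 to 5 in the 3 comparisons with a library left out.

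With the replicate number as a block, the calls were 6 members and 8550 genes for hypoxia against control, 0 and 495 for rSRGN against hypoxia alone, and 5 and 8096 for rSRGN against control, and no call of a member changed. Called genes in hypoxia + rSRGN against hypoxia were 72.6% higher with TMM, 81.1% with DESeq2, 66.9% with library totals alone, 60.5% at the unadjusted p and 62.6% without hypoxia 3. With 3 libraries a group, the precision of each member is that of the interval given with it.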

Other observations

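Values in hypoxia against control are given here for further genes upstream and downstream of the members, chosen after their values were seen. Trp53, which codes for the p53 factor, rose (log2 fold change 0.93, SE 0.0725, edgeR adjusted p = 1.3e-10), as did Atf4 (1.39, SE 0.0777) and Ddit3 (1.79, SE 0.113), transcription factors of the integrated stress response. Foxo4 fell (-0.715, SE 0.0978), and Foxo1 was at -0.475 (SE 0.112, edgeR adjusted p = 0.000719), under the fold limit. The death receptor genes Fas (1.0, SE 0.107) and Tnfrsf10b (0.894, SE 0.0783) rose.

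Downstream, Cycs, which codes for cytochrome c, fell (log2 fold change -1.4, SE 0.072, edgeR adjusted p = 1.02e-13), as did Casp9 (-0.623, SE 0.11), the initiator caspase. Apaf1, the scaffold of the apoptosome, was at -0.105 (SE 0.0959, edgeR adjusted p = 0.336). With rSRGN against hypoxia, none of these 10 genes was called. Foxo1 was at 0.413 (SE 0.113, edgeR adjusted p = 0.0153) and Tnfrsf10b at 0.281 (SE 0.0763, edgeR adjusted p = 0.0145), both under the fold limit. In this comparison 16.6% of all genes tested had an edgeR adjusted p below 0.05 at any fold.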
